A study of Mus musculus with 6 samples.

Results

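Alternative exon-end events are exons that start or stop at more than 1 place, so that 2 or more forms of the same exon overlap. They were read from the deposited event tables by their event type, and 4725 of the 13564 such events listed in any library were selected on their mean over all 6 libraries, which had to be at least 5 FPKM (fragments scaled to the length of the transcript and the size of the library). No other measured value entered this rule, which was set with earlier results of these data known. A form missing from a library's table was set to 0. The kept events lay in 2831 genes. Just inside the threshold were exons of Rere (5.002 FPKM), Dennd2d (5.004 FPKM) and Depdc5 (5.005 FPKM), and just outside those of 2700081O15Rik (4.998 FPKM), Nxf1 (4.996 FPKM) and Qrsl1 (4.995 FPKM).

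The libraries were made from RNA of DN3 thymocytes, early T cell precursors of the mouse thymus that are negative for lineage markers, CD4, CD8 and CD44 and positive for CD25. They were sorted from untreated 5-week-old animals of 2 genotypes, WT and Hspa9 cKO, to study what GRP75 does in early thymocytes. Hspa9 encodes GRP75, the HSP70 chaperone of the mitochondrial matrix. Each group held 3 libraries. Cre driver, strain and allele design are not stated by the labels used here. Nothing in the labels ties each library to its own animal; the spread that p-values are set against is that between these libraries and may be technical.

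An exon's upstream edge is set by the acceptor splice site, which ends in the bases AG of the preceding intron. Its downstream edge is set by the donor splice site, which begins with the bases GT, less often GC, of the following intron. When a gene holds competing sites a short distance apart, the spliceosome can use either, and the longer exon form carries an extra stretch that the shorter form treats as intron. A stretch whose length is a multiple of 3 leaves the reading frame intact, and any other length shifts it. Acceptors 3 bases apart are a well-known class that adds or removes a single amino acid.

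The stretches below are examples from coding exons whose form shares did not overlap between the libraries of the 2 groups. The mean shares differed by 9.075 points for Slc11a2 and by at least 20 points for the others. Not every exon with such a difference is printed. They were read 5′ to 3′ from GENCODE M21 transcripts on the mm10 build. For alternative acceptors the printed run is the extra stretch of the longer exon followed by the first 9 bases common to both forms. Capitals mark the AG that the shorter form uses as the end of its intron.
Ncor1 (chr11:62373446-62373622, minus strand): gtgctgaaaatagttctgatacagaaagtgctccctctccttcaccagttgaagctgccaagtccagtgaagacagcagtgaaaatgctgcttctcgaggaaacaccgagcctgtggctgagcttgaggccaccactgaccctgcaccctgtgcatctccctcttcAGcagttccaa
Birc6 (chr17:74594322-74594372, plus strand): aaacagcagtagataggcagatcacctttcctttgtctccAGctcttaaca
Birc6 (chr17:74613377-74613403, plus strand): ggcattctgttcctgcAGttttacaga
Acin1 (chr14:54653270-54653317, minus strand): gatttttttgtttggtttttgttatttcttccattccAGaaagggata
Kpna2 (chr11:106997306-106997335, minus strand): ctttcctccttgttcctgcAGccatgtcca
Gpr108 (chr17:57243105-57243134, minus strand): tcattcacccatctcctacAGagatgtctg

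For alternative donors the run is the last 9 bases common to both forms followed by the extra stretch of the longer exon. Capitals mark the GT at which the shorter form leaves the exon.
Ikbke (chr1:131275707-131275787, minus strand): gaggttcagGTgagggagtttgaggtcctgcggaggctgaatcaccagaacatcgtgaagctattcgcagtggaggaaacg
Sec31a (chr5:100373380-100373433, minus strand): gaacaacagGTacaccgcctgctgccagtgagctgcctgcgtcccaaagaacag
Slc11a2 (chr15:100412191-100412242, minus strand): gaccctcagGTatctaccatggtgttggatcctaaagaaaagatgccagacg
Rif1 (chr2:52093557-52093589, plus strand): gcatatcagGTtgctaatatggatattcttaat

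The next set shows acceptors 3 bases apart, at which both forms were present at similar shares in WT and Hspa9 cKO. The run begins with the 3 extra bases of the longer exon, and capitals again mark the internal AG.
Usp19 (chr9:108493561-108493572, plus strand): aAGaaacctctg
Cpsf4 (chr5:145178833-145178844, plus strand): cAGagagccccg
Hspbp1 (chr7:4684558-4684569, minus strand): cAGaccttcaag
Ssr4 (chrX:73788835-73788846, plus strand): cAGaggcctgcc
Hgs (chr11:120479087-120479098, plus strand): cAGtaccagaat

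Before the events themselves, the libraries were checked against their labels. Transcripts that included exons 2 to 4 of Hspa9 made up 86.1% to 100% of the total in the WT libraries and 13.6% to 22.9% in the Hspa9 cKO libraries, and Hspa9 has no event among those described here. Of 14 defining DN3 markers, 14 were listed, with summed levels of 2405 to 3165 FPKM in WT and 3176 to 3568 FPKM in Hspa9 cKO. Of 6 B cell markers 1 was listed (9.75 to 12.6 against 15.3 to 18.3 FPKM). Of 7 stromal markers only Epcam was listed (27.2 to 29.1 against 36.7 to 43.0 FPKM). Of 6 myeloid markers 4 were listed (summed 8.92 to 14.99 against 13.5 to 15.5 FPKM), of 5 NK or innate lymphoid markers 2 (200.1 to 219.5 against 201.3 to 206.5 FPKM) and of 4 erythroid markers 2 (under 1 FPKM in sum). Markers of later thymocytes summed to 11.6 to 13.6 FPKM in WT and 5.56 to 6.401 FPKM in Hspa9 cKO, and those of DN1 and DN2 progenitors to 8.34 to 10.9 and 8.10 to 10.3 FPKM. The part of these markers in the results below was not tested. The labels name no batch or litter. Across the kept events, Pearson correlations of log2(FPKM + 1) were 0.789 to 0.807 within groups and 0.745 to 0.787 between them.

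The kept events were mostly annotated coding exons of usual size. Of the 4725, 4560 had both edges of an exon in the GENCODE M21 annotation, 4017 lay wholly in coding sequence, 554 partly and 154 outside it. Their median length was 133 bases, and their mean level ran from the threshold to 1431 FPKM, with a median of 12.4 FPKM. Each library listed 4643 to 4656 of them, and 4542 were listed in all 6. The summed level of the kept events was 127150, 128204 and 133439 FPKM in WT and 122079, 123562 and 123990 FPKM in Hspa9 cKO. Of the 4725, 458 had a mean under 5 FPKM in 1 of the groups (301 in WT, 157 in Hspa9 cKO), and for these a difference in level is built into the choice.

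For 3807 events at least 1 other alternative exon-end event of the same gene ID overlapped the exon, which is what a share needs; 918 events had none. The 3807 fell into 3255 groups of overlapping forms, and the form with the highest mean in a group is called the leading form. The leading form and its strongest alternative differed at the acceptor in 1574 groups and at the donor in 880. In 795 groups the longer form also held another annotated exon of the gene that the shorter form did not touch, so that the longer form runs through an intron; these are called intron-spanning. In 6 groups both edges differed. The median length difference was 43 bases for acceptors, 60 for donors and 673 for intron-spanning pairs. The longer form led in 737 of the acceptor groups, 374 of the donor groups and 96 of the intron-spanning groups.

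The edges of the extra stretches carried splice site bases. In all 1301 acceptor groups whose longer exon is annotated, the extra stretch ended in AG. In 655 of 669 such donor groups (97.9%) it began with GT and in the other 14 (2.09%) with GC. The longer exon was not annotated in 273 acceptor and 211 donor groups, which have no sequence here. A difference of 3 bases occurred in 37 acceptor groups and in 0 donor groups, and a difference of 4 bases in 6 acceptor groups and 6 donor groups.

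**Figure D1:**
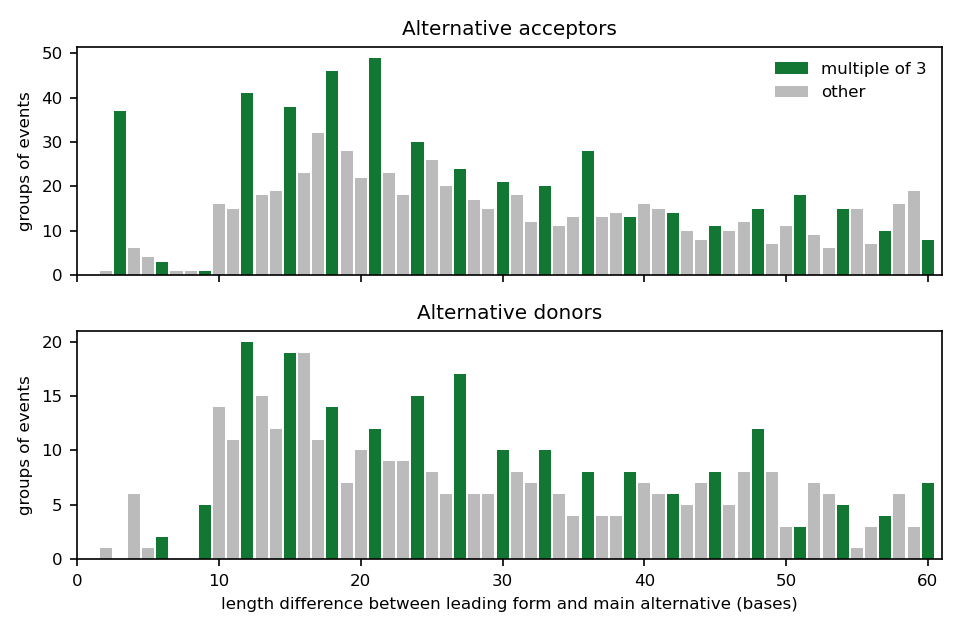
Number of groups of overlapping forms (y axis) by the length difference between the leading form and its strongest alternative in bases (x axis, up to 60), for alternative acceptors (top) and donors (bottom); green bars are multiples of 3. A separate peak of 37 groups stands at 3 bases for acceptors and has no counterpart for donors.

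Stretches that keep the reading frame were more frequent where both forms were used. Among extra stretches lying in coding sequence, 412 of 882 acceptor stretches (46.7%) and 211 of 456 donor stretches (46.3%) were multiples of 3. Where the leading form held at least 95% of the total in both genotypes, the multiples made up 194 of 470 acceptor stretches (41.3%) and 81 of 203 donor stretches (39.9%). Where it held under 80% in both, they made up 68 of 97 (70.1%) and 52 of 73 (71.2%). These counts describe the transcripts of DN3 thymocytes of both genotypes and were not tested, since groups from 1 gene share transcripts.

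In 1607 of the 3255 groups a single form carried nearly all of the signal in both genotypes. The share of a form is its FPKM as a percent of the summed FPKM of the overlapping forms. In those 1607 groups the leading form had a mean share of at least 95% in both genotypes, and in 314 groups it had under 80% in both. The median share over groups was 97.0% in WT and 96.9% in Hspa9 cKO. The genotypes' mean shares differed by a median of 2.98 percentage points. The median SD between the 3 libraries of a group was 2.96 points in WT and 2.80 in Hspa9 cKO. The SD is that of single libraries and the difference is that of means of 3, so these sizes are not directly comparable. Among groups whose leading share was under 80%, the SDs were 10.8 and 10.3 points.

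Summed over all groups, the longer side took a like part of the FPKM in the genotypes. The longer side was the leading form where it exceeds its strongest alternative in length, and otherwise all its overlapping forms together. Some forms on that side can thus be shorter than the leading form, and groups with high FPKM weigh most in the sums. For acceptors the longer side took 41.1% to 43.0% of the summed FPKM in the WT libraries and 40.5% to 41.3% in the Hspa9 cKO libraries. For donors it took 44.4% to 45.7% and 44.5% to 46.5%, and for intron-spanning pairs 16.5% to 19.6% and 18.4% to 19.7%. The ranges of the genotypes overlapped in each of these classes.

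**Figure D2:**
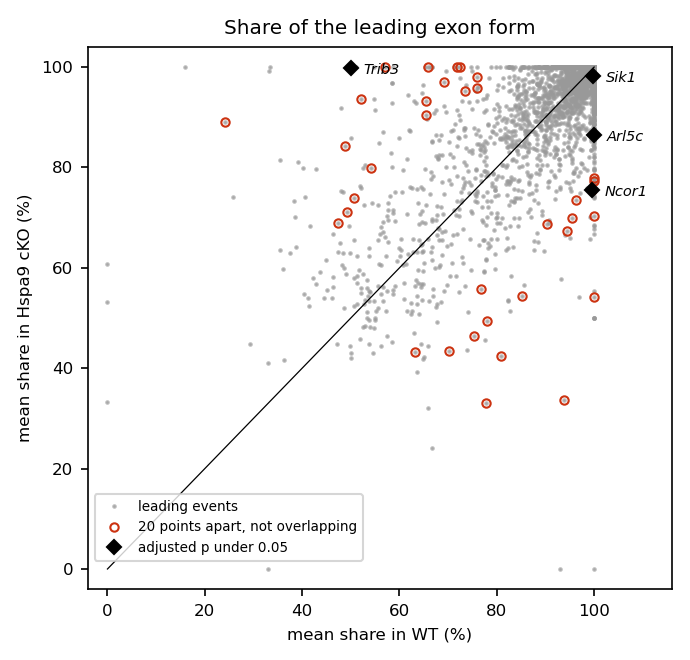
Mean share of the leading form in WT (x axis, percent) against Hspa9 cKO (y axis, percent), 1 point per group of overlapping forms; the line marks equal shares. Most points lie in the corner above 90% in both genotypes, circles mark the 35 groups at least 20 points apart without overlap, and diamonds mark Arl5c, Ncor1, Sik1 and Trib3. The WT position of Trib3, at 50%, has no stable base. It is the mean of 100% and 0% in WT replicates 1 and 3, with no share in WT replicate 2.

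The main comparison asked which exon forms took a different share in Hspa9 cKO. Few did by the test across all forms. The test was limma on log2 of the form's FPKM plus 1 over the summed FPKM of its overlapping forms plus 1, two-sided, with Benjamini-Hochberg adjustment over 3807 events. It called 5 events (0.131% of those tested) in 4 genes, 1 higher (0.0263%) and 4 lower (0.105%), and 295 (7.75%) had an unadjusted p under 0.05. Of the 3255 leading forms, 258 (7.93%) had one. Where the other forms are near 0 this ratio follows the form's own level, so these counts include changes of level. The 4 genes were Ncor1, Arl5c, Sik1 and Trib3. In Ncor1 and Arl5c another form was listed in the Hspa9 cKO libraries alone, while the levels of the leading form overlapped between genotypes. In Sik1 and Trib3 the other forms were near 0 and the ratio moved with the level of the leading form itself.

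Ncor1 encodes a nuclear receptor corepressor that recruits histone deacetylases. Its 547-base coding exon on chromosome 11 (62373076 to 62373622, on the minus strand) was at 19.9, 28.4 and 23.5 FPKM in WT and at 26.0, 20.96 and 33.2 FPKM in Hspa9 cKO, and these ranges overlapped. A 379-base form, which uses the internal acceptor printed above and lacks 168 bases, was not listed in any WT library and stood at 10.4, 6.70 and 8.13 FPKM in Hspa9 cKO. Another form, of 499 bases, stayed under 0.2 FPKM in all 6 libraries. The share of the 547-base form was 99.5%, 99.7% and 99.5% in WT and 71.1%, 75.4% and 80.2% in Hspa9 cKO, with means of 99.6% ± 0.10 and 75.6% ± 4.58 (SD, n = 3). The log2 ratio fell by 2.95 (standard error 0.28; limma, adjusted p = 0.0408), and the exact two-sided permutation test of the shares gave p = 0.1, the lowest value possible for groups of 3. The missing stretch is a multiple of 3.

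Arl5c encodes a small GTPase of the ARF-like family. Its 148-base coding exon on chromosome 11 (97994338 to 97994485, on the minus strand) was at 52.1, 41.6 and 46.5 FPKM in WT and at 54.8, 51.1 and 44.0 FPKM in Hspa9 cKO. A form of 1061 bases, which runs from this exon through the following intron and the next exon (97993425 to 97993508), was not listed in WT and stood at 7.87, 7.19 and 8.28 FPKM in Hspa9 cKO. The share of the 148-base exon was 100% in each WT library and 87.4%, 87.7% and 84.1% in Hspa9 cKO (log2 ratio change -3.04, standard error 0.23; limma, adjusted p = 0.0278). The next exon, of 84 bases, overlaps the same long form and gave -3.30 (standard error 0.25, limma, adjusted p = 0.0278). It also overlaps an unannotated 65-base form, listed only in Hspa9 cKO replicate 2, at 4.09 FPKM. These 2 calls share the 1061-base form and are not independent. With the alternative form not listed in WT and set to 0 there, the size of both ratio changes and of that for Ncor1 depends on the added 1 FPKM.

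Sik1 encodes a salt-inducible kinase. Its exon on chromosome 17 (31848959 to 31849081) stood at 36.2, 45.2 and 41.5 FPKM in WT and at 5.06, 5.21 and 6.70 FPKM in Hspa9 cKO. Its intron-spanning alternatives stayed between 0.0381 and 0.146 FPKM, and its share averaged 99.8% ± 0.03 and 98.2% ± 1.10 (SD, n = 3) in WT and Hspa9 cKO. The log2 ratio fell by 2.66 (standard error 0.24; limma, adjusted p = 0.0328), as much as the level did. Trib3 encodes a pseudokinase induced in the integrated stress response. Its 291-base coding exon on chromosome 2 (152343037 to 152343327) was at 0.00526 FPKM in WT replicate 1, was not listed in WT replicates 2 and 3, and stood at 23.1, 25.5 and 12.8 FPKM in Hspa9 cKO. Its alternatives reached at most 0.298 FPKM, so that in WT the share has no stable base (log2 ratio change 4.47, standard error 0.38; limma, adjusted p = 0.0328).

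These calls did not survive the loss of single libraries. The number called was 0 without WT replicate 1, 8 without WT replicate 2, 11 without WT replicate 3, and 0, 1 and 0 without Hspa9 cKO replicates 1, 2 and 3. Of the 5 events, both Arl5c exons remained without WT replicate 2 and without WT replicate 3, and the other libraries' removal left 0 of them. With a minimum of 5 FPKM for the other forms, 0 of 709 events were called (38 at an unadjusted p under 0.05). The 5 events were not among these 709, since each of their other forms had a mean under 5 FPKM. That setting therefore could not test them.

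The groups next in order of p were not called. Ikbke encodes a kinase of innate immune signalling. Its 141-base exon (chromosome 1, 131275707 to 131275847) stood at 12.9, 12.4 and 13.4 FPKM in WT and at 14.5, 7.43 and 10.8 FPKM in Hspa9 cKO. The 69-base form, which leaves at the internal GT printed above, was not listed in WT and stood at 6.71, 13.3 and 7.77 FPKM in Hspa9 cKO. Here the longer form held 100% in each WT library and 68.3%, 35.9% and 58.2% in Hspa9 cKO (limma, adjusted p = 0.158). In the intron-spanning pair of Cul5, a cullin scaffold of ubiquitin ligases, the leading form is the shorter. The longer Cul5 form (chromosome 9, 53642518 to 53642826) stood at 4.65, 5.80 and 2.72 FPKM in WT and was not listed in Hspa9 cKO. The leading, shorter form held 50.7%, 51.1% and 69.6% in WT and 100% in each Hspa9 cKO library (limma, adjusted p = 0.158).

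Smaller but tight separations followed. Tpp2, a cytosolic peptidase, had a form 11 bases longer at the donor, at 1.94, 1.54 and 2.52 FPKM in Hspa9 cKO and not listed in WT, and the leading share was 100% in each WT library and 88.2%, 90.1% and 83.9% in Hspa9 cKO (limma, adjusted p = 0.127). For Edem1, which routes misfolded glycoproteins to degradation, a form with a donor 219 bases downstream was under 1 FPKM in each WT library and at 5.87, 9.81 and 6.44 FPKM in Hspa9 cKO; the leading share was 99.4% ± 1.03 and 89.0% ± 3.23 (SD, n = 3; limma, adjusted p = 0.23). The leading share of Brd8, a bromodomain subunit of a histone acetyltransferase complex, was 98.9% ± 1.89 and 82.1% ± 3.06 (SD, n = 3) against an intron-spanning form (limma, adjusted p = 0.127). Slc11a2, a divalent metal transporter, used the 43-base stretch printed above in 88.4%, 89.3% and 91.8% of its total in WT and in 99.2%, 98.3% and 99.3% in Hspa9 cKO (limma, adjusted p = 0.268). In each of these 4 genes the 3 libraries of one genotype lay apart from the 3 of the other. The same was so in 237 of 2722 leading forms (8.71%) with a group total of at least 5 FPKM in every library. The 4 genes were picked by their small p, which favours such separation, so it adds no support.

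In others of the 15 groups with the smallest p, the ratio followed the level. The leading forms of H2-D1, Ociad1 and Per1 held 97.4% or more of the total in both genotypes, and their level was called in the test of level below. Mpc1, a subunit of the mitochondrial pyruvate carrier, held 45.0%, 97.7% and 52.1% in WT and 98.4%, 92.6% and 98.5% in Hspa9 cKO, which overlap. The leading form of Card9 held 88.4%, 100% and 100% in WT and 100% in each Hspa9 cKO library, which overlap as well.

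**Figure D3:**
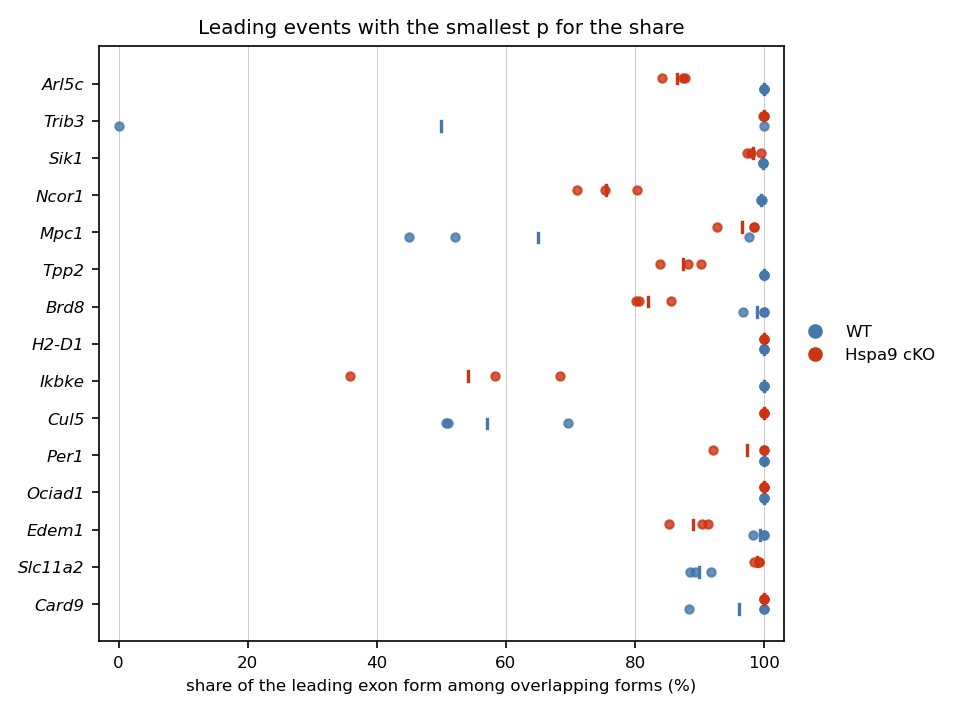
Share of the leading form (x axis, percent) in each WT and Hspa9 cKO library for the 15 groups with the smallest p (y axis, by gene); points are libraries, ticks are group means, and Trib3 has no share in WT replicate 2 because all its forms were at 0. The Hspa9 cKO libraries of Arl5c, Ncor1, Tpp2, Brd8, Ikbke and Edem1 lie to the left of all WT libraries, those of Cul5 and Slc11a2 to the right, and the points of H2-D1 and Ociad1 coincide near 100%.

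The size of the difference was then used in place of the p. This rule was chosen after the values had been seen and serves as a description. Among 2722 leading forms with a group total of at least 5 FPKM in every library, the shares of the genotypes did not overlap in 237 (8.71%). They were also at least 20 points apart in 35 (1.29%), 17 higher and 18 lower in Hspa9 cKO (0.625% and 0.661%). The 35 groups, in 34 genes, held 17 acceptor, 9 donor and 9 intron-spanning pairs, from 1324, 732 and 661 groups examined. The longer form was the one favoured in Hspa9 cKO in 16 of them. Of 20 with a coding stretch, 15 had a length that is a multiple of 3. Over all groups this held for 665 of 1418 coding stretches (46.9%). Where the leading form held under 80% in both genotypes, it held for 70.1% of acceptor and 71.2% of donor stretches. A gap of 20 points needs both forms to be used, so the count was not read as a trait of these groups. By limma, 1 of the 35 (Ncor1) had an adjusted p under 0.05 and 28 an unadjusted p under 0.05, and 0 of the leading forms were called for level.

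**Figure D4:**
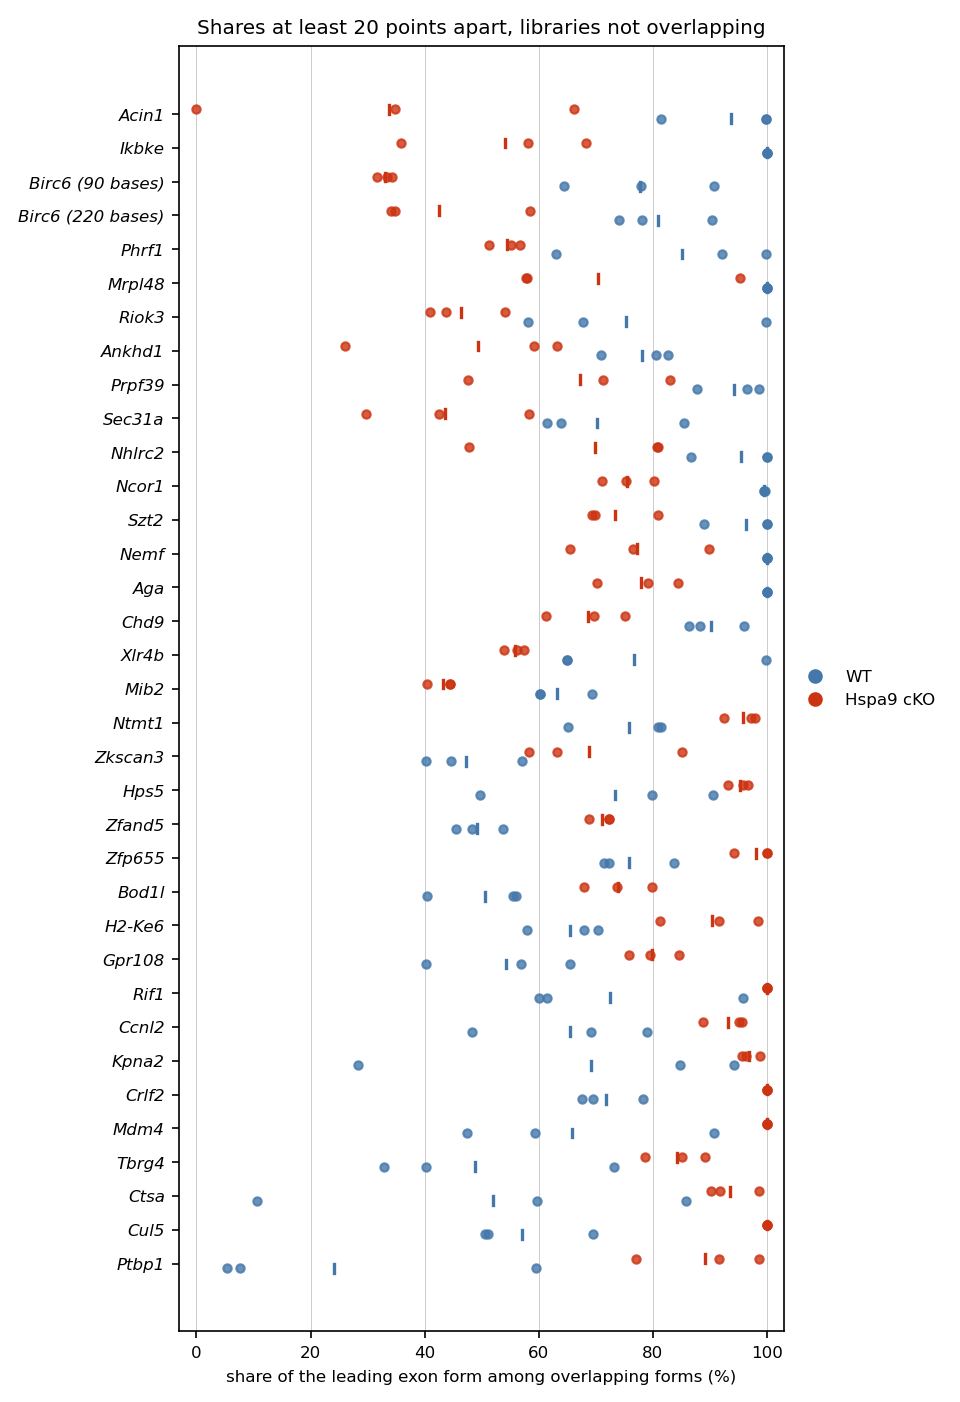
Share of the leading form (x axis, percent) in each library for the 35 groups at least 20 points apart (y axis, by gene; Birc6 has 2 exons); points are libraries and ticks are group means. The upper 18 groups are lower in Hspa9 cKO and the lower 17 higher, and in several, such as Kpna2, Ctsa and Acin1, the libraries of 1 genotype spread widely.

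Birc6, a giant ubiquitin-conjugating inhibitor of apoptosis, appeared with 2 exons on chromosome 17. At the first (74594364 to 74594453, plus strand), the form without the 42-base stretch stood at 11.8, 8.69 and 10.9 FPKM in WT and at 4.72, 6.37 and 6.68 FPKM in Hspa9 cKO, and the form with it at 3.32, 4.78 and 1.10 against 10.2, 12.7 and 12.8 FPKM. The share of the form without the stretch was 77.8% ± 13.2 in WT and 33.1% ± 1.37 in Hspa9 cKO (SD, n = 3; limma, adjusted p = 0.331). At the second (74613377 to 74613596), the form with the 18-base stretch held 80.9% ± 8.55 in WT and 42.5% ± 13.9 in Hspa9 cKO (SD, n = 3; limma, adjusted p = 0.421). The alternative forms of both exons had nearly the same level in each library, the second being at 3.46, 4.93 and 1.23 FPKM in WT and 10.4, 12.8 and 12.9 FPKM in Hspa9 cKO, so the exons are not independent observations.

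Ptbp1 and Acin1, of the splicing factor list, were among the 35, as were Ccnl2 and Prpf39, which are on no list here. Ccnl2 and Prpf39 were picked from the 35 after the values were seen, so these genes give no count of splicing genes. The 35 made up 1.29% of all groups examined, and none of these genes was called for share. Ptbp1 encodes the polypyrimidine tract-binding protein, a repressor of exon inclusion. The longer of its forms on chromosome 10 (79858952 to 79859271) stood at 11.2, 9.29 and 111.3 FPKM in WT and at 245.7, 124.5 and 94.9 FPKM in Hspa9 cKO, while the shorter one (79859072 to 79859271) stood at 135.1, 161.6 and 75.7 against 22.5, 1.72 and 28.1 FPKM. Its shares were 7.66%, 5.44% and 59.5% in WT and 91.6%, 98.6% and 77.2% in Hspa9 cKO, with WT replicate 3 far from the other WT libraries (limma, adjusted p = 0.462). Acin1, a component of complexes bound to spliced mRNA, used the form without the 39-base stretch in 81.4%, 99.9% and 100% of its total in WT and in 0%, 66.2% and 34.8% in Hspa9 cKO (limma, adjusted p = 0.462). Ccnl2, a cyclin linked to splicing, and Prpf39, a U1 snRNP-associated factor, both had more of the form that runs through the intron in Hspa9 cKO. That form held 65.6% ± 15.7 of the Ccnl2 total in WT and 93.2% ± 3.84 in Hspa9 cKO (SD, n = 3), with a limma adjusted p of 0.385. For Prpf39 the spliced form leads and held 94.4% ± 5.75 and 67.3% ± 18.1 (SD, n = 3), with a limma adjusted p of 0.546. The 646-base Prpf39 form through the intron had means of 0.893 and 6.58 FPKM.

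The other stretches printed above lay in genes of varied function. Rif1, which acts in DNA repair and replication timing, held the 24-base stretch in 95.9%, 61.4% and 60.1% of its total in WT and in 100% in each Hspa9 cKO library. Kpna2, an importin of nuclear proteins, held its 21-base stretch in 28.4%, 94.2% and 84.9% in WT and in 98.8%, 95.8% and 96.4% in Hspa9 cKO, and WT replicate 1 lay far below the other WT libraries. Sec31a, of the COPII vesicle coat, used the form with the 45-base stretch in 63.9%, 85.5% and 61.4% in WT and in 42.5%, 29.7% and 58.4% in Hspa9 cKO. Gpr108 used the form with the 21-base stretch in 57.0%, 40.2% and 65.5% in WT and in 84.6%, 79.5% and 75.8% in Hspa9 cKO. The limma adjusted p-values of these 4 genes lay between 0.496 and 0.721.

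Intron-spanning pairs included Mdm4, an inhibitor of p53. A form of 4539 bases joining 2 of its exons stood at 12.3, 12.8 and 3.20 FPKM in WT and was not listed in Hspa9 cKO, and the 56-base exon at one end (chromosome 1, 133009137 to 133009192) held 47.5%, 59.4% and 90.8% in WT and 100% in each Hspa9 cKO library (limma, adjusted p = 0.305). The exon at its other end, of 68 bases, stood at 11.1, 18.7 and 13.9 FPKM in WT and 37.0, 44.1 and 42.3 FPKM in Hspa9 cKO and was called for level (log2 change 1.46, standard error 0.20; limma, adjusted p = 0.0318). The form of Mib2, a ubiquitin ligase of the Notch pathway, that runs through its intron stood at 5.64, 5.79 and 4.28 FPKM in WT and at 11.6, 13.8 and 17.1 FPKM in Hspa9 cKO and was called as well (log2 change 1.27, standard error 0.18; limma, adjusted p = 0.0379). Its spliced counterpart held 63.3% ± 5.28 and 43.2% ± 2.34 of the total (SD, n = 3).

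Testing the percent share itself, an alternative added after the data were seen, called other genes. Without trend and robust options limma called 5 events, 0 of them shared with the 5 above, and with these options 0 (136 at an unadjusted p under 0.05). The share of an Ncoa5 exon (chromosome 2, 165010451 to 165010587), not the leading form of its group, was 100% in each WT library and 58.5%, 52.7% and 58.3% in Hspa9 cKO; Ncoa5 encodes a nuclear receptor coactivator. The leading share of Kat2b, a histone acetyltransferase, was 89.8%, 89.2% and 89.4% in WT and 100% in each Hspa9 cKO library. The others were the leading form of Sap30l (100% and 88.8%) and forms of Atp8a1 (100% and 76.0%) and Ivns1abp (31.3% and 1.59%) that do not lead their groups, given as means of WT and Hspa9 cKO.

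Of 37 groups with acceptors 3 bases apart, 0 were called for share by limma and 2 had an unadjusted p under 0.05, namely Nolc1 and Mier1. The libraries of the genotypes did not overlap in 3 of the 37, Fau, Mier1 and Zkscan3 (8.71% over all groups with a sufficient total), and 1 of these was at least 20 points apart. In that gene, Zkscan3, which encodes a zinc finger protein, the form with the 3 bases held 44.6%, 40.3% and 57.1% in WT and 58.3%, 63.2% and 85.1% in Hspa9 cKO (limma, adjusted p = 0.671). Of the 37 groups, 23 had a coding stretch, and the leading form held under 80% in both genotypes in 13 and at least 95% in both in 6. The 3 extra bases were CAG in 24 groups, AAG in 4, TAG in 4 and GAG in 2; the rest have no sequence here. Usp19, a deubiquitinase, included the 3 bases in 61.6%, 65.0% and 62.0% of its total in WT and in 72.4%, 61.05% and 63.7% in Hspa9 cKO. Cpsf4, a factor of mRNA 3′ end cleavage, included them in 64.9%, 59.97% and 57.2% and in 54.7%, 66.1% and 60.8%. The leading forms of Hspbp1, a regulator of HSP70 chaperones, Ssr4, a subunit of the translocon-associated complex, and Hgs, of the endosomal sorting machinery, held 61.7% ± 17.5, 66.8% ± 6.10 and 65.3% ± 3.18 in WT and 62.7% ± 1.75, 69.7% ± 12.5 and 68.9% ± 10.4 in Hspa9 cKO (SD, n = 3). In these 5 genes the libraries of the genotypes overlapped.

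The level of the events, as distinct from their share, was compared with limma on log2(FPKM + 1), two-sided, with Benjamini-Hochberg adjustment over 4725 events. It called 87 events (1.84%) in 69 genes, 55 higher (1.16%) and 32 lower (0.677%) in Hspa9 cKO. The libraries of the genotypes did not overlap in 1364 events (28.9%), among them all 87. Rescaling by trimmed means gave 46 higher and 47 lower, which removes the excess of higher calls. At least 2-fold on this scale were 23 of the higher and 13 of the lower events, and 14 of the 87 had a mean under 5 FPKM in 1 genotype. For these 14 a difference in level is built into the choice, so their calls add no support. They include Trib3, Irf7 and the Pck2 exon given below, which were under 5 FPKM in WT. The Ly6e and Ewsr1 forms given below, under 5 FPKM in Hspa9 cKO, are also among them. In 38 the form led its group with at least 95% in both genotypes, and 14 had no overlapping form, and 0 of the 87 were among the 35 leading forms at least 20 points apart. In bulk RNA, fewer cells of a type and less RNA per cell cannot be told apart. The calls also rested on having all libraries. Without WT replicates 1, 2 and 3 in turn the test called 12, 10 and 30 events, of which 11, 8 and 19 were among the 87. Without Hspa9 cKO replicates 1, 2 and 3 it called 4, 10 and 3, of which 4, 8 and 3 were among the 87.

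The higher events included exons of Irf7, H2-D1 and H2-Q7, which are on the interferon list. Irf7, a transcription factor of the interferon response, stood at 2.16, 3.52 and 4.36 FPKM in WT and at 23.9, 12.3 and 18.9 FPKM in Hspa9 cKO (log2 change 2.14, standard error 0.30; limma, adjusted p = 0.0379). H2-D1, a classical MHC class I molecule, stood at 127.7, 127.9 and 154.5 FPKM and at 252.3, 266.8 and 262.4 FPKM (limma, adjusted p = 0.0269), and its 15-base acceptor alternative stayed under 0.1 FPKM in all libraries. An exon of H2-Q7, a non-classical MHC class I gene with near-identical paralogs whose reads may be split between copies, stood at 14.2, 18.4 and 17.9 FPKM and at 71.0, 60.6 and 66.6 FPKM (limma, adjusted p = 0.00729). Dtx1, a Notch target, stood at 27.5, 26.6 and 25.8 FPKM in WT and at 85.2, 78.1 and 79.1 FPKM in Hspa9 cKO (log2 change 1.57, standard error 0.08; limma, adjusted p = 0.00317). Cblb, a ubiquitin ligase that limits T cell receptor signalling, stood at 13.8, 8.84 and 10.1 FPKM and at 31.0, 25.3 and 28.9 FPKM (limma, adjusted p = 0.0318). Pck2, the mitochondrial enzyme that makes phosphoenolpyruvate, was called through 2 exons, the one at 5.10, 5.45 and 3.59 FPKM in WT and 16.5, 14.5 and 13.4 FPKM in Hspa9 cKO with a log2 change of 1.48.

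The lower events included exons of Sik1, described above, and of Dusp1, Per1, Tacc3, Mki67 and Nusap1, the last pair being on the cell cycle list. Dusp1, a phosphatase of MAP kinases, stood at 41.5, 49.2 and 45.4 FPKM in WT and at 5.99, 15.005 and 10.5 FPKM in Hspa9 cKO (log2 change -2.09, standard error 0.30; limma, adjusted p = 0.0399). Per1, a clock gene, was called through 3 exons, with log2 changes of -1.69, -1.69 and -1.38. Tacc3, a spindle protein, was also called through 3 exons, that with the largest change (-1.09) being at 25.3, 26.1 and 29.1 FPKM in WT and at 12.6, 10.1 and 13.7 FPKM in Hspa9 cKO. Mki67, a marker of proliferating cells, stood at 44.1, 43.4 and 38.1 FPKM and at 24.4, 25.1 and 24.7 FPKM (limma, adjusted p = 0.0269). Events of 1 gene are not independent: the 2 called Nusap1 exons carried the same mean levels (18.4 FPKM in WT, 10.97 FPKM in Hspa9 cKO).

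A few level calls did concern a form. The 235-base acceptor form of Ly6e, a surface protein of thymocytes, stood at 49.1, 20.3 and 22.005 FPKM in WT, was not listed in Hspa9 cKO replicates 1 and 3 and was at 0.0226 FPKM in replicate 2 (limma, adjusted p = 0.0136), while the 151-base form had means of 35.1 and 35.2 FPKM. An unannotated 600-base Ewsr1 form that runs through an intron stood at 8.22, 13.4 and 21.02 FPKM in WT and was not listed in Hspa9 cKO (limma, adjusted p = 0.0406). The 69-base exon of Taf15 stood at 41.8, 40.4 and 37.9 FPKM in WT and at 5.31, 11.6 and 9.94 FPKM in Hspa9 cKO (log2 change -2.10, standard error 0.27; limma, adjusted p = 0.0283). It was the only form in WT, with a mean share of 55.3% in Hspa9 cKO, where a form 27 bases shorter was listed in 2 libraries. Ewsr1 and Taf15 encode related RNA-binding proteins.

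**Figure D5:**
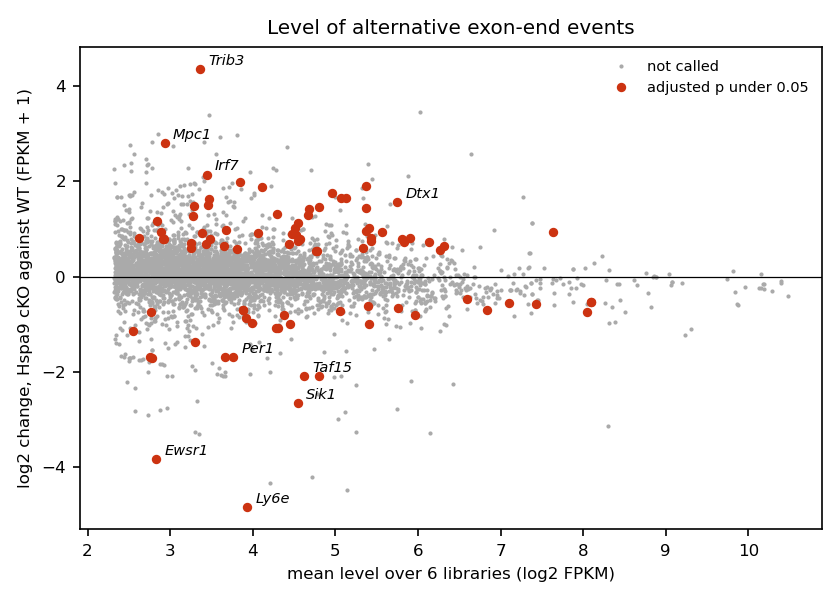
Log2 change of level, Hspa9 cKO against WT (y axis, FPKM + 1), against the mean level over 6 libraries (x axis, log2 FPKM) for 4725 alternative exon-end events; red points have an adjusted p under 0.05 and some are named. Called events lie on both sides of 0, 55 above and 32 below, from Trib3 at the top to Ly6e at the bottom.

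Gene lists gave the events by function. Over all 3255 groups 4 leading forms were called for share. Over all 4725 events the median level change was 0.05 on the log2 scale. The splicing factor list had 65 groups in 42 genes, 0 called for share. Of these groups 2 were at least 20 points apart, Ptbp1 and Acin1 (1.29% over all groups with a sufficient total). Of its 119 events 1 was called higher (Rbm5) and 1 lower (Mbnl3) in level, with a median change of -0.14. The interferon list had 29 groups, 0 called for share, and 9 of 47 events called higher and 0 lower (1.16% and 0.677% over all events), with a median level change of 0.67. The cell cycle list had 28 groups, 0 called for share, and 0 of 45 events called higher and 6 lower (1.16% and 0.677% over all events), with a median of -0.38. The thymocyte list had 20 groups, 0 called for share, and 2 of 29 events called higher, Dtx1 and Cblb. The integrated stress response list had 9 groups, 1 called for share (Trib3), and 1 of 13 events called higher. Both calls are of the same Trib3 exon, whose share has no stable base in WT.

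The mitochondrial chaperone, import and protease list, closest to the function of GRP75, had 10 groups and 24 events, and 0 were called for share or level, with a median level change of -0.03. Its group with the widest gap in mean share was Immt, an organizer of mitochondrial cristae. The form without its 33-base stretch held 69.3%, 90.7% and 4.33% in WT and 98.3%, 90.7% and 91.8% in Hspa9 cKO, and WT replicate 3 alone used mostly the longer form (limma, adjusted p = 0.675). Trap1, the mitochondrial HSP90, held 99.8% ± 0.34 and 99.2% ± 0.28 (SD, n = 3). The ribosome list had 32 groups and 62 events, and 0 were called for share or level. It supplied highly expressed leading forms: the leading exon of Rplp0 had means of 1415 and 1282 FPKM with shares of 98.8% ± 0.07 and 97.2% ± 2.90 (SD, n = 3), and that of Rpsa 1220 and 1098 FPKM with shares of 99.2% ± 0.03 and 99.3% ± 0.08 (SD, n = 3). Rpl10a, at 1208 and 1062 FPKM, had shares that moved by library in both genotypes, 87.0%, 99.9% and 86.1% in WT and 99.9%, 82.3% and 99.9% in Hspa9 cKO.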

How the data were processed

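The authors deposited 1 table per library with an FPKM value for each transcript-structure event, per the file headers. Per the submitters' processing notes, trimming used cutadapt 1.9.1 and the build was mm10; aligner, assembler and event caller are not stated in the labels used here. The tables hold no counts, so depth is unknown, counting intervals cannot be given, and a 0 can be a failed estimate. FPKM values of events depend on how reads were divided among isoforms, so forms of 1 gene share transcripts. Events of the alternative exon-end type were joined by event number, with unlisted events set to 0 and no rescaling; their genes were assigned through exon edges of GENCODE M21. Overlap meant at least 1 shared base within a gene ID.

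Groups were taken from the sample titles. Shares and levels were tested with limma 3.58.1 (R 4.3.3), with trended, robust empirical Bayes variances, a pseudocount of 1 FPKM and an adjusted p threshold of 0.05, and checked on simulated data. Because the tables hold FPKM, the test planned for counts was not used. For single shares an exact permutation test was used, two-sided. Named were the called groups and those with the smallest p up to 15, 2 groups per list, the 5 with the highest level, the groups at least 20 points apart and the called levels; the last pair of rules and the examples among acceptors 3 bases apart were chosen after values were seen. The members and the gene lists were chosen with earlier results of these data known.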

Additional observations from a re-analysis of the deposited data

How the results depend on the processing

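The labels give replicate numbers, and the numbers did not pair the libraries: deviations from the group means correlated at -0.05, 0.03 and -0.03 for same-numbered libraries. With the replicate block the share test called 0 events (230 at an unadjusted p under 0.05) and the level test 0 (827). The share test called 2 events among those listed in all 6 libraries, 3 with a mean of at least 1 FPKM, 11 without a filter, 3 without trend and robust options, 0 with other forms of at least 5 FPKM (38 at an unadjusted p under 0.05), 2 with a pseudocount of 0.1 and 0 on the percent share (136). It called 4 or 5 with a mean of at least 10 FPKM, with other forms that share an end, with a group total of at least 5 FPKM in every library, with trimmed-mean scaling and on the percent share without trend. The 5 events of the main test were not among those tested with other forms of at least 5 FPKM. Those of Arl5c and Trib3 were not among the tested events listed in all 6 libraries. Leaving out 1 library at a time gave 0 to 11 share calls and 3 to 30 level calls. The other settings gave 73 to 98 level calls. Over all alternatives the adjusted p ranged from 0.0387 to 0.463 for Ncor1, from 0.0159 to 0.463 for the leading Arl5c exon, from 0.0253 to 0.709 for Sik1 and from 0.0277 to 0.463 for Trib3.

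The direction of the share turned for Aurkb, whose difference was 0.303 points on the percent share, with and without trend, against a log2 ratio change of -1.21. The other Aurkb forms stood at 0.313 FPKM or less. It also turned for Rplp0, which ran from -1.24 to 0.11 over the fits without 1 library, the latter without Hspa9 cKO replicate 1. The longer Rplp0 form stood at 80.5 FPKM in that library and at 12.5 to 17.4 FPKM in the others. The cause was not tested. Among values of single named events, 1032 for share kept direction and side of the threshold, 48 were no longer past it, 1 newly passed it and 3 turned. For level 558 kept both, 641 were no longer past the threshold and 0 turned. Forms not listed in a library, which were set to 0, and the unknown depth limit every share with a weak alternative form.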
